A study of Mus musculus with 28 samples.

Results

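Pleiotrophin (Ptn), midkine (Mdk) and macrophage migration inhibitory factor (Mif) are secreted proteins that signal to cells of injured tissue. The syndecans Sdc1, Sdc2, Sdc3 and Sdc4, nucleolin (Ncl) and LDL receptor related protein 1 (Lrp1) are cell surface proteins that bind pleiotrophin and midkine. These 9 genes, of 56980 in the bulk count table, were taken by name as ligands and binding partners. All 9 of 9 passed the filter on low counts, a mean normalized count of at least 100 over the 25 bulk libraries, which 12673 genes passed.

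The study profiled the remodeling of a mouse jugular vein after it was joined to the carotid artery, an arteriovenous fistula (AVF), the vascular access used for hemodialysis. Male and female C57BL/6 mice first had a 5/6 nephrectomy, which lowers kidney function, and then the fistula operation. The control tissue was the contralateral jugular vein of operated mice, so controls carried the same kidney surgery. Bulk RNA was sequenced from 7 contralateral veins (5 female, 2 male), 8 early fistulas labelled 3 days (3 female, 5 male), 5 mid fistulas labelled 10 days and 5 late fistulas labelled 21 days (each 3 female, 2 male), with 1 library per vessel.

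Single cells came from 1 library each of contralateral vein, early fistula and late fistula. Each of these pooled vessels of males and females, so the single-cell values have no replicates and no test. By the study's methods, the single-cell fistulas were harvested on average some days later than the bulk fistulas of the same name. No label gives an unoperated vein, a vein of a mouse with intact kidneys or the age of the mice, and an artery was not sequenced. A fistula differs from a contralateral vein both by arterial blood flow and by the surgery itself, and these cannot be told apart here.

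As background, pleiotrophin and midkine are the members of a small family of growth factors that bind heparin. They attach to the heparan sulfate chains of syndecans and act through a receptor tyrosine phosphatase, Ptprz1, and through Alk, Lrp1, nucleolin and integrins. Mif is a cytokine held ready-made in many cells, platelets and leukocytes among them, which signals through Cd74 with Cd44 and through the chemokine receptors Cxcr2 and Cxcr4. In blood vessels these ligands are known for recruiting leukocytes and for the growth of smooth muscle cells and fibroblasts.

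Total counts per bulk library ran from 20254173 to 67457501. Levels are given in CPM, counts scaled to a common library total with TMM, a correction for differences in RNA composition between libraries. Fold changes are on the log2 scale, and adjusted p-values come from the quasi-likelihood test of edgeR, adjusted over all 12673 genes. The standard error (SE) is derived from that test, as the size of the fold change over the square root of its F statistic. A gene is called where its adjusted p is under 0.01 and its log2 fold change is at least 1 in size. The 3 comparisons with contralateral veins share those 7 veins.

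Several libraries stood apart in measures other than the level of a single member gene. Early fistulas 6, 5 and 3 had at least 1 count for 17514, 19074 and 21522 genes, where the other 5 early fistulas had 24033 to 25141. Contralateral veins had 11958 to 18283, so every vein lay under every fistula except early fistula 6, and this difference cannot be told apart from the groups. Vein 28 had the fewest genes, and it had the highest summed level of B cell markers (2835 CPM, most abundant gene Ighm) and of plasma cell markers (1839 CPM, Igkc), against at most 657 and 448 CPM in the other veins. Early fistulas 6, 5 and 3 also held more counts on short genes. The 376 tested genes with at most 1000 exon bases, Mif among them, took 12.1%, 10.6% and 9.51% of their counts, against 2.40% to 6.43% in the other 22 libraries. These libraries were singled out after their values were seen, and the called changes of members are given with and without the 3 early ones.

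**Figure D1:**
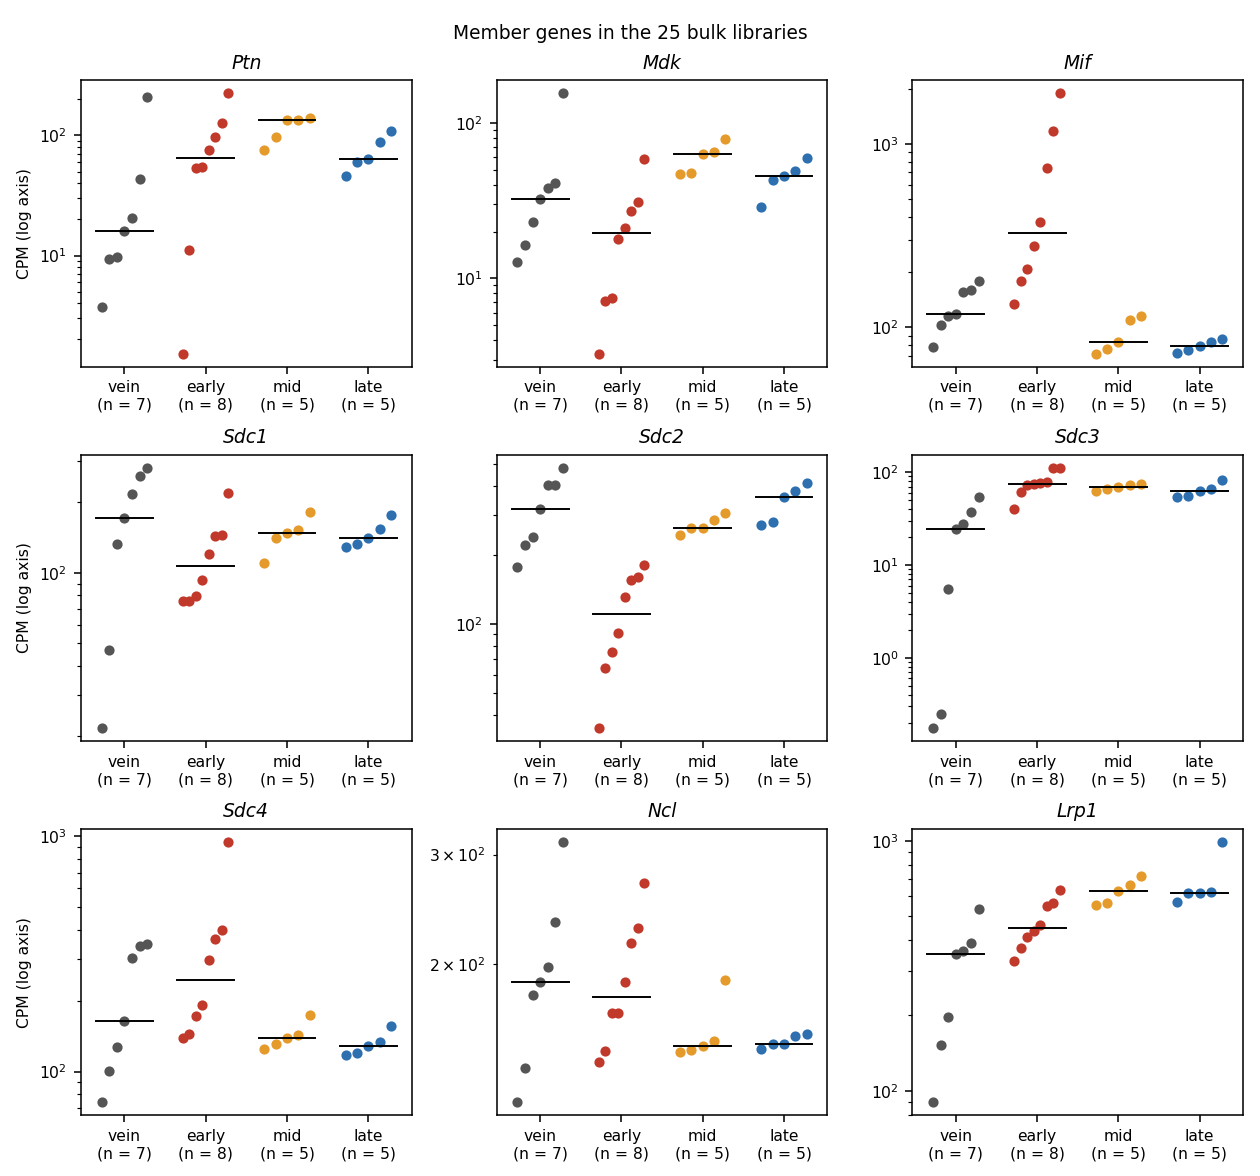
Level of each member gene (vertical log axis, CPM) in the 25 bulk libraries, with 1 point per library and a line at the median of each group. Mif spans 134 to 1890 CPM in the early fistulas, Sdc2 lies under 181 CPM in all of them, and Ptn has its highest vein at 208 CPM and its lowest early fistula at 1.52 CPM.

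In early fistulas against contralateral veins, a comparison that asks what changes in the days after surgery, Mif rose and Sdc2 fell, 2 of 9 members called, beside 12.6% of all genes. Of the 12673 genes, 782 rose and 817 fell. The median log2 fold change was 0.66 over the 9 members and -0.01 over all genes. In mid fistulas against contralateral veins edgeR called 0 of 9 members, beside 6.05% of all genes. At an unadjusted p under 0.05 there were 2 members, and DESeq2 called 1, as did the likelihood ratio test of edgeR. In late fistulas against contralateral veins Lrp1 rose, 1 of 9 members, beside 5.33% of all genes.

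Between the fistula times, which asks how the early state resolves, 2 of 9 members were called in late against early fistulas, beside 3.01% of all genes (381): Mif was lower and Sdc2 higher in late fistulas. The number of genes called there fell to 32 without late fistula 24 and to 33 without early fistulas 3, 5 and 6. In mid against early fistulas edgeR called 0 of 9 members, beside 0.00789% of all genes. There were 4 members at an unadjusted p under 0.05, and DESeq2 and the likelihood ratio test each called 2, Mif and Sdc2. In late against mid fistulas edgeR called 0 of 9 members and 0 genes, so the background is 0%. No member and 39 genes had an unadjusted p under 0.05 there, and DESeq2 called 1 gene and 0 members. For sex, edgeR found 0 of 9 members with an effect of the early fistula that differed between males and females at an adjusted p under 0.05, beside 0.450% of all genes (57). The smallest unadjusted p among the members was 0.0353, for Sdc1, with an adjusted p of 0.512.

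**Figure D2:**
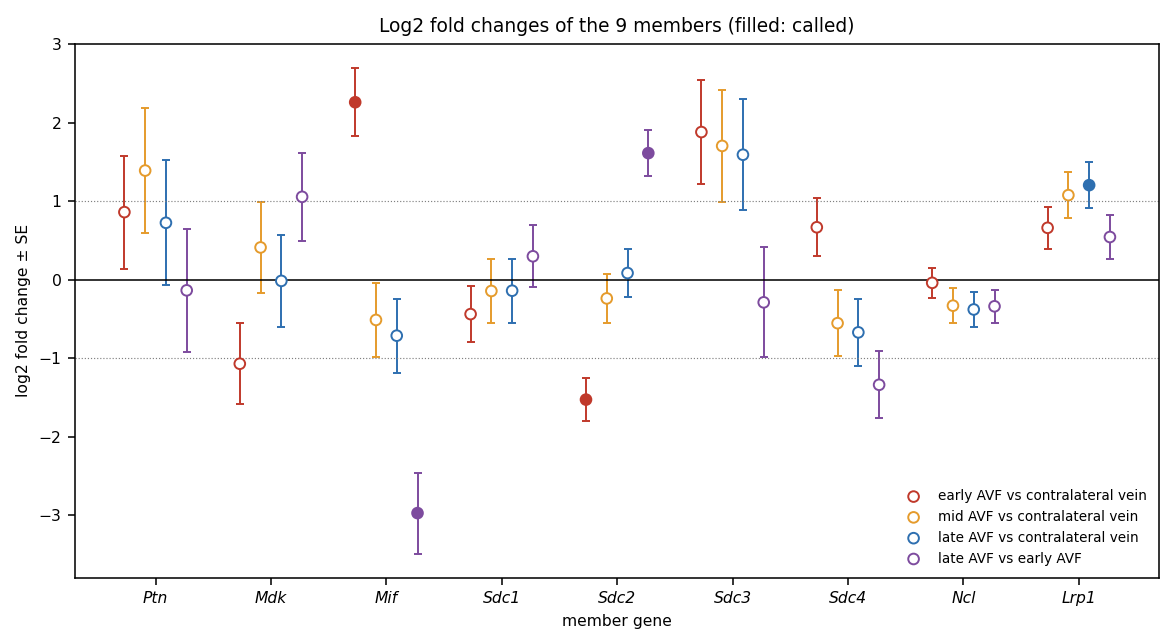
Log2 fold change with its SE (vertical axis) of the 9 members (horizontal axis) in 4 comparisons, with filled points for called genes and dotted lines at a log2 change of 1 in either direction. The filled points are Mif at 2.26 and Sdc2 at -1.53 in early fistulas, Lrp1 at 1.20 in late fistulas, and Mif at -2.97 and Sdc2 at 1.61 in late against early fistulas.

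Among the ligands, Mif had the largest called change. Mif ranged from 78.2 to 178 CPM in the 7 veins (median 119) and from 134 to 1890 CPM in the 8 early fistulas (median 327). In mid fistulas it was 71.6, 75.8, 83.0, 110 and 115 CPM, and in late fistulas 72.1, 75.1, 79.1, 83.0 and 86.4 CPM. All but 1 early fistula lay above all veins, and the mid and late fistulas overlapped the lower veins or lay under them. The early change was 2.26 (SE 0.434, adjusted p = 3.78e-04). The late change against early was -2.97 (SE 0.515, adjusted p = 0.00192), with 5 of 5 late fistulas under every early one. Leaving out late fistula 24 took this adjusted p to 0.0106. The mid change against early was -2.77 with an adjusted p of 0.0131, just past the limit, and it was called without early fistula 1 (adjusted p = 0.00622), 2 (0.00923), 4 (0.00554) or 10 (0.00262). Over the 25 fits with 1 library left out it ran from -2.95 to -2.27, with adjusted p-values up to 0.0621.

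The early level of Mif was uneven. The labels give all early fistulas as 3 days, while the study's methods give a spread in days, and the day of each library is not known. From low to high, early fistulas 10, 1, 4, 2, 7, 3, 5 and 6 had 134, 178, 208, 278, 377, 735, 1170.2 and 1890.0 CPM. The 3 highest are the 3 libraries with few genes detected. The summed level of 5 platelet markers, of which Pf4 is the most abundant, had the same order in all 8 early fistulas, from 381 CPM in early fistula 10, through 409, 455, 1144, 2598, 4108 and 9369, to 12695 CPM in early fistula 6. That order was noticed after the values were seen. The neutrophil, the monocyte and macrophage and the erythroid sums had the same 3 highest early libraries as Mif.

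Of the 4 platelet markers tested, 2 rose in early fistulas, and none was at 0 in all libraries. The early counts, for platelet, neutrophil and macrophage markers alike, stand beside 12.6% of all genes called. The platelet sums had a median of 1871 CPM in early fistulas, beside 358 CPM in veins and 377 and 427 CPM at the mid and late time. Neutrophil markers rose for 5 of 6 tested genes (most abundant S100a8), with the highest sums, 4427, 3295 and 2260.1 CPM, again in early fistulas 6, 5 and 3. Monocyte and macrophage markers rose for 8 of 9 genes (most abundant Lyz2), with a median sum of 4807 CPM in veins and 24274 CPM in early fistulas. Fewer or more cells of a type and less or more RNA per cell cannot be told apart in bulk libraries. The part of these cells in the change of Mif was not tested.

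Mif is also a short gene, with 745 exon bases. Measured as the log2 distance from each gene's mean over the 25 libraries, the 376 short genes had a median of 1.86, 1.70 and 1.37 in early fistulas 6, 5 and 3 and of at most 0.61 in any other library, and Mif stood at 3.59, 2.90 and 2.23. In early fistulas against veins the short genes had a median log2 fold change of 0.56, with 52 rising and 11 falling, and 42 of 376 had a change at least as large as that of Mif. Mif is itself 1 of the 376, and the 52 and the 42 include it. The 12219 longer genes with a known length had a median of -0.02. In late against early fistulas the short genes had a median of -1.38, with 2 higher and 59 lower, and the longer genes 0.03. In mid against early the medians were -1.36 and 0.02. Without early fistulas 3, 5 and 6, a setting chosen after seeing the data, the early change of Mif was 0.79 (adjusted p = 0.0282) and was no longer called. Without vein 28 as well it was 0.97 (adjusted p = 0.00466), under the fold limit. Without those 3 early fistulas the late change against early was -1.57 (adjusted p = 0.00550), still called, and the mid change against early was -1.36 (adjusted p = 0.120). Leaving out any 1 library kept the early change called, between 1.84 and 2.47. The part of gene length in the result was not tested.

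**Figure D3:**
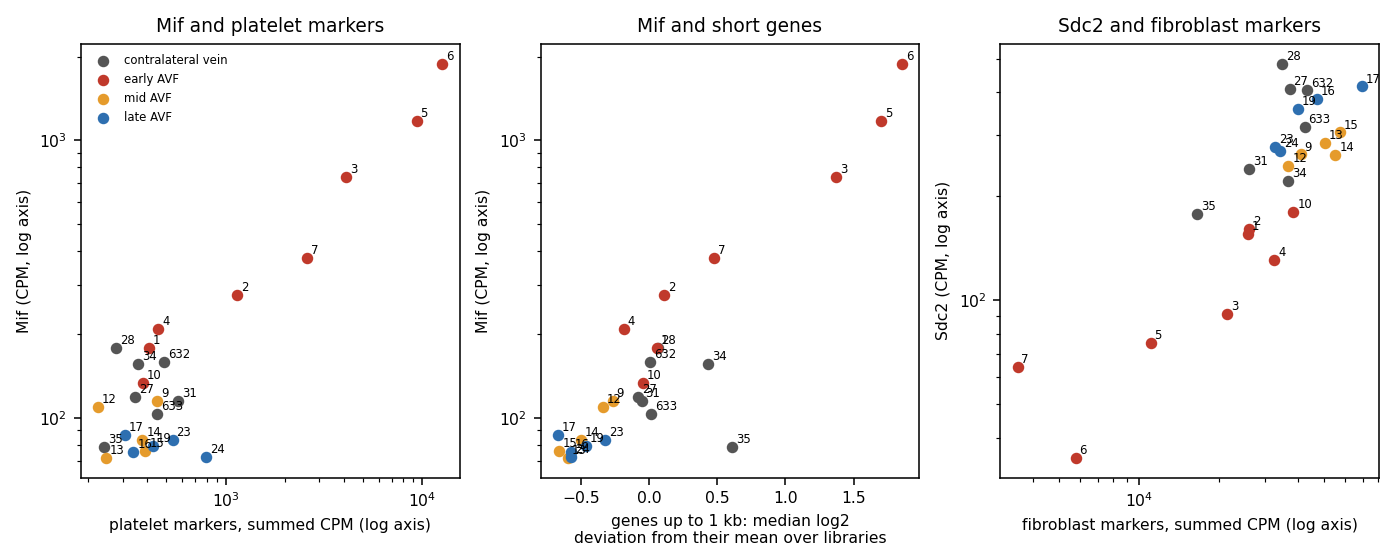
Each point is 1 of 25 bulk libraries with its number: Mif (CPM, log axis) against the summed platelet markers (CPM, log axis) and against the median log2 deviation of 376 short genes, and Sdc2 (CPM, log axis) against the summed fibroblast markers (CPM, log axis). Early fistulas 6, 5 and 3 lie at the top right for Mif, with 12695, 9369 and 4108 CPM of platelet markers, and early fistulas 6, 7 and 5 at the lower left for Sdc2.

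The Mif promoter is shown because Mif has the largest called change of the members. RefSeq promoters on the build GRCm38.p6, from 250 bases before to 50 after the gene start, matched 7 of 9 members, all but Mdk and Sdc2. Those of Ptn and Lrp1 stand beside it, as the ligand with the largest span between libraries and the receptor that rose late. There were 6 motifs searched on both strands, with shares among 32817 promoters of 300 bases. The hypoxia response core ACGTG is held by 19.6% of these, and its variant that starts with G, GCGTG, by 32.4%. The Sp1 motif GGGCGG is held by 35.6%, the CCAAT box by 37.4%, the TATA box TATAAA by 13.6% and the AP-1 motif TGACTCA by 5.2%. Capitals mark matches, and a match is a description of letters, not of a bound site. Mif lies on the minus strand at chr10:75860228-75860527, Ptn on the minus strand at chr6:36810130-36810429 and Lrp1 on the minus strand at chr10:127621099-127621398.
Mif: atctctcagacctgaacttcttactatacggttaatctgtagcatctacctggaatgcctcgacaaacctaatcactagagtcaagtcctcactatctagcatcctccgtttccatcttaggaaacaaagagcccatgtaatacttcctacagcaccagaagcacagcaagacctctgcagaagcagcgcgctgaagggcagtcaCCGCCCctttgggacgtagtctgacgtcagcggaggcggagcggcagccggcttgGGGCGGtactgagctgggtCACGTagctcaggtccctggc
Ptn: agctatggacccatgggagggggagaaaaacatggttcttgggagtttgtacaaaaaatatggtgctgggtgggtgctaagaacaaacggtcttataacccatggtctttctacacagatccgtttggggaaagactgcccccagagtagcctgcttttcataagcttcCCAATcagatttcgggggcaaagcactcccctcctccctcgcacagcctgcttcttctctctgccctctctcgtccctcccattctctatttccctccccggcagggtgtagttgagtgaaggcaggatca
Lrp1: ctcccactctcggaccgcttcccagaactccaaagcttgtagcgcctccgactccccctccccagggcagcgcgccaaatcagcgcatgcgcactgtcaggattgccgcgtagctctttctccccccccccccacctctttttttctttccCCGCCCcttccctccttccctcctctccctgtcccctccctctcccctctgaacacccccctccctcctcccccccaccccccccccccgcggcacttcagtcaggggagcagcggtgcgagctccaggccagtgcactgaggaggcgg
Mif holds 2 Sp1 motifs and 1 ACGTG core, which reads CACGT on the strand printed. Ptn holds 1 CCAAT box and Lrp1 holds 1 Sp1 motif, and neither has another of the 6 motifs.

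Pleiotrophin spanned the widest range of the 9 members among early fistulas, read as the ratio of the highest to the lowest library. Ptn was 3.72 to 208 CPM in veins (median 15.9) and 1.52 to 224 CPM in early fistulas (median 64.6). In mid fistulas it was 75.8, 96.7, 134, 135 and 139.6 CPM, and in late fistulas 45.8, 59.98, 63.3, 88.3 and 109 CPM. The highest vein was vein 28 at 208 CPM, with the next at 43.1 CPM, so 6 of 7 veins lay under every mid and late fistula. In early fistulas the lowest were early fistulas 6, 5 and 7, at 1.52, 11.0 and 53.4 CPM. These 3 also had the lowest fibroblast and satellite cell marker sums, given with Sdc2, and the part of these cells was not tested. No change was called: 0.86 (SE 0.721, adjusted p = 0.434) early, 1.39 (adjusted p = 0.286) mid and 0.72 (adjusted p = 0.630) late.

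These values rest on few libraries. Without early fistula 10 the early change of Ptn was 0.36, and no fit with 1 library left out called the early change. Without vein 28 the mid change of Ptn was 2.78 (adjusted p = 0.00895) and passed both limits, and the early and late changes were 2.25 (adjusted p = 0.0125) and 2.12 (adjusted p = 0.0424). Without early fistulas 3, 5 and 6 and vein 28, a setting chosen after seeing the data, Ptn was called at all 3 times, at 2.73 (adjusted p = 3.61e-04), 2.78 (adjusted p = 3.82e-04) and 2.12 (adjusted p = 0.00365). Vein 28 is the vein with high B cell and plasma cell markers. Its part is read only from the fit that left it out alone. The calls at all 3 times came with early fistulas 3, 5 and 6 left out as well.

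Midkine, the close relative of pleiotrophin, did not pass the test at any time. Mdk was 12.8 to 155 CPM in veins (median 32.2) and 3.27 to 58.1 CPM in early fistulas (median 19.4). It was 46.9, 47.9, 63.3, 65.3 and 78.6 CPM in mid and 28.9, 42.8, 45.2, 48.8 and 59.1 CPM in late fistulas. The 3 early fistulas with the lowest Mdk, 5, 7 and 6, also had the lowest fibroblast and satellite cell marker sums, and the part of these cells was not tested. Vein 28 was again the highest vein, far above the next at 41.2 CPM, and the mid fistulas lay above all the other veins. The changes were -1.07 (SE 0.516, adjusted p = 0.142) early, 0.41 mid and -0.02 late, and mid against early gave 1.48 (adjusted p = 0.168). Without vein 28 the changes of Mdk were -0.31 (adjusted p = 0.651), 1.17 (adjusted p = 0.122) and 0.74 (adjusted p = 0.355).

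Among the receptors, the syndecans are transmembrane proteins that carry heparan sulfate chains, and they did not move as a group. Sdc2, a syndecan of fibroblasts and other mesenchymal cells, was 177 to 484 CPM in veins (median 317) and 35.0 to 180.4 CPM in early fistulas (median 111). It was 245, 263, 264, 284 and 306 CPM in mid and 271, 278, 358, 383 and 415 CPM in late fistulas. All but 1 early fistula lay under all veins, and the mid and late fistulas lay within the range of the veins. The early change was -1.53 (SE 0.277, adjusted p = 1.97e-04), and it was called with any 1 library left out, between -1.74 and -1.32. It was also called without early fistulas 3, 5 and 6 (-1.27, adjusted p = 0.00153) and, close to the fold limit, without these and vein 28 (-1.07, adjusted p = 0.00364).

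In later fistulas Sdc2 was higher again. The late change against early was 1.61 (SE 0.297, adjusted p = 0.00253) and the mid change against early 1.29 (adjusted p = 0.0146, not called), with 5 of 5 fistulas above every early one in both. The mid change was called without early fistula 1 (adjusted p = 0.00954), 2 (0.00994) or 10 (0.00561). Over the 25 fits with 1 library left out it ran from 1.16 to 1.43, with adjusted p-values up to 0.0621. The late call was lost without late fistula 16 (adjusted p = 0.0128), 17 (0.0133) or 19 (0.0113), and without early fistulas 3, 5 and 6 (1.30, adjusted p = 0.0215), where the mid change was 0.98 (adjusted p = 0.244). Against veins the changes were -0.24 mid and 0.08 late.

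Of 8 fibroblast markers (most abundant Col3a1), 3 fell in early fistulas, beside 12.6% of all genes called. In late against early fistulas 2 of the 8 were higher, beside 3.01% of all genes called. The sum of the 8 markers was lowest in early fistulas 7, 6 and 5, at 3488, 5777 and 11072 CPM. In these same 3 libraries Sdc2 was lowest. In the other early fistulas it was 21542 to 38290 CPM and in veins 16611 to 43197 CPM, so the sums of those early fistulas overlap the veins. Of the 23 marker lists, satellite cell sums, at most 4.77 CPM in early fistulas, had the same 3 lowest early fistulas as Sdc2 too. Their order stood at most 1 place from that of Sdc2, and the order of the fibroblast sums at most 2. Smooth muscle markers fell for 6 of 8 genes (Acta2), from a median sum of 11035 CPM in veins to 1797 in early fistulas, with 2318 in mid and 2984 in late ones. Endothelial markers fell for 6 of 8 genes (Vwf), from 2846 to 534 CPM, with 708 in mid and 758 in late ones. The early counts of smooth muscle and endothelial markers stand beside the same 12.6% of all genes called. No marker of these lists was at 0 in all libraries, and the part of cell numbers in the change of Sdc2 was not tested.

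Sdc1, known from epithelial and plasma cells, was 21.7 to 282 CPM in veins (median 172) and 75.6 to 220.1 CPM in early fistulas (median 107). It was 110.3 to 181 CPM in mid and 129 to 176 CPM in late fistulas, inside the range of the veins. Its early change was -0.44 (adjusted p = 0.424).

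Sdc3, a syndecan of nerve and muscle that is also found on macrophages, was 0.175 to 53.6 CPM in veins (median 24.2). Early fistulas had 39.9 to 112 CPM (median 74.7), mid fistulas 63.2, 65.9, 69.2, 72.7 and 74.7 CPM, and late fistulas 54.3, 55.3, 62.3, 65.5 and 82.5 CPM. Every mid and late fistula lay above every vein. The changes, 1.88 (SE 0.659, adjusted p = 0.0393), 1.70 (adjusted p = 0.120) and 1.59 (adjusted p = 0.156), exceeded the fold limit but not the limit on the adjusted p. DESeq2 called the early one, at 1.92 (adjusted p = 0.00746). Monocyte and macrophage markers, given with Mif, rose in the same early fistulas, and their part was not tested.

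Sdc4, a widely expressed syndecan of focal adhesions, was 74.0 to 349 CPM in veins (median 164) and 139 to 946 CPM in early fistulas (median 246). It was 125, 131, 139, 143 and 174 CPM in mid and 118, 119.8, 129, 133 and 156 CPM in late fistulas. The early maximum was early fistula 6, and all groups overlapped the veins. No change was called: 0.67 (adjusted p = 0.210) early, and -1.34 (adjusted p = 0.0562) in late against early fistulas. Without early fistulas 3, 5 and 6 these were -0.058 and -0.67, so the direction of the early change of Sdc4 rests on those libraries.

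Nucleolin, a protein of the nucleolus that can also reach the cell surface, had similar levels throughout. Ncl was 119.5 to 314 CPM in veins (median 187), 139 to 269.7 CPM in early fistulas (median 177), 144 to 188 CPM in mid and 146 to 154 CPM in late fistulas. Its changes against veins were -0.04 (SE 0.192, adjusted p = 0.912), -0.33 and -0.38, and none was called.

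Lrp1, a large endocytic receptor that takes up many proteins from outside the cell, was 89.9 to 534 CPM in veins (median 353) and 331 to 632 CPM in early fistulas (median 448). It was 551, 564, 631, 667 and 719 CPM in mid fistulas and 570.0, 618, 619, 625 and 989 CPM in late fistulas. Every mid and late fistula lay above every vein, and the early fistulas overlapped both. The changes were 0.66 (SE 0.266, adjusted p = 0.0748) early, 1.08 (SE 0.295, adjusted p = 0.0155) mid and 1.20 (SE 0.295, adjusted p = 0.00762) late, and the late one alone was called.

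The late call of Lrp1 is close to the limit. It was lost in 12 of 25 fits with 1 library left out, in each by its p and not its fold, which was 1.04 or more, with adjusted p-values of 0.0144 and 0.0205 without veins 31 and 35 and 0.0117 without early fistula 10. They were 0.0131, 0.0131, 0.0102 and 0.0102 without mid fistulas 12, 13, 14 and 15, and 0.0192, 0.0331, 0.0147, 0.0144 and 0.0136 without late fistulas 16, 17, 19, 23 and 24. Without early fistulas 3, 5 and 6 the late change was 1.15 (adjusted p = 0.0117). With only the libraries of the 2 groups it was 1.23 (adjusted p = 0.0736), also not called. The mid change was called without vein 632 (1.28, adjusted p = 0.00315) and by DESeq2 (1.11, adjusted p = 0.00345). Tests of mid and late against early fistulas gave 0.42 and 0.54 with no call, so a difference between the times was not shown.

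Levels of different genes can be compared only per kilobase of exon. In veins the median CPM per kilobase was highest for Mif (159), then Sdc2 (89.9), Sdc4 (64.5), Sdc1 (45.3), Mdk (24.3), Lrp1 (19.9), Ncl (18.3), Ptn (4.64) and Sdc3 (4.04). In early fistulas the order began with Mif (439.5), Sdc4 (96.4) and Sdc2 (31.4), in mid fistulas with Mif (111), Sdc2 (74.9) and Sdc4 (54.5), and in late fistulas with Mif (106), Sdc2 (101) and Sdc4 (50.5). Median Ptn was 18.8, 39.0 and 18.4 in early, mid and late fistulas, and median Ncl 17.3, 14.4 and 14.6. Ptn ran from 1.52 to 224 CPM over early libraries and from 45.8 to 109 CPM over late ones. Ptn and Ncl are therefore not ordered at these times. Sdc3 had the lowest median at all 3. Each order depends on the exon bases used. In late fistulas Mif and Sdc2 did not differ beyond their spread over libraries. Exon bases were 3433 for Ptn, 1324 for Mdk, 3809 for Sdc1, 3527 for Sdc2, 5989 for Sdc3, 2547 for Sdc4, 10188 for Ncl and 17717 for Lrp1, on GRCm38.

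On that build Ptn (ENSMUSG00000029838) lies at chr6:36714929-36810220, Mdk (ENSMUSG00000027239) at chr2:91929805-91932297 and Mif (ENSMUSG00000033307) at chr10:75859353-75860240, all on the minus strand. Sdc1 (ENSMUSG00000020592) lies at chr12:8771323-8793715, Sdc2 (ENSMUSG00000022261) at chr15:32920723-33034935 and Sdc3 (ENSMUSG00000025743) at chr4:130792537-130826319, all on the plus strand. Sdc4 (ENSMUSG00000017009) at chr2:164424247-164443887, Ncl (ENSMUSG00000026234) at chr1:86344719-86359400 and Lrp1 (ENSMUSG00000040249) at chr10:127538161-127621148 are on the minus strand. Some counts may be shared with other genes, since how reads were counted is not stated. Mif has the named pseudogenes Mif-ps3 and Mif-ps7, and Mdk has Mdk-ps1. Antisense genes overlap the gene spans of Sdc3 (Gm12970, Gm26716) and Lrp1 (Gm16217). The span of Ncl holds the small RNA genes Snora75, mmu-mir-3535, Gm24148 and Snord82. Whether exons overlap was not examined.

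The genes most like each member were those with the smallest root mean square difference in centered log2 CPM over the 25 libraries. This difference depends on how much a member varies, from an SD of 0.336 for Ncl to 2.29 for Sdc3. For Mif these were Sec61b (0.37), Cstb (0.38) and Rps26 (0.39), and for Sdc2 they were Ddr2 (0.38), Eml1 (0.38) and Serpinf1 (0.39). Ptn, with an SD of 1.83, had Zfhx4 at 1.11, Mamstr at 1.13 and 4931406P16Rik at 1.13. Mdk was nearest to Tgfb3 (0.62), Adamts2 (0.66) and Adgrd1 (0.67), and Sdc3 to Fntb (0.56), Zbtb7b (0.63) and Map3k3 (0.64). Sdc1 had Extl3 (0.37), Spns1 (0.39) and Anxa11 (0.44), and Sdc4 had Mthfsl (0.34), Set (0.39) and Supt4a (0.39). Ncl had Psmc5 (0.25), Bnip3l (0.28) and Hspa14 (0.28), and Lrp1 had Ehmt2 (0.37), Calr (0.39) and Eif4b (0.41).

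The rest of the pathway was read from 7 lists of 81 genes, of which 74 passed the filter. Alk, Cspg5, Lrp2, Gpc2, Hs3st3b1, A2m and Plau did not. Of 12 tested receptors and co-receptors of pleiotrophin and midkine, edgeR called 1 in early fistulas, beside 12.6% of all genes, the phosphatase Ptprz1, lower at -3.53 (adjusted p = 0.00195). DESeq2 called 3 and the likelihood ratio test 2 of them. This list had a median of 0.35, beside -0.01 over all genes. Lrp8 at 4.61 (adjusted p = 0.0113), Itgb3 at 1.75 and Itgb1 at -0.58 were not called by edgeR.

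The list of Mif receptors and the Mif paralog holds 6 genes in all. Of these, 3 rose in early fistulas and 0 fell, beside 12.6% of all genes called. The median was 1.60, beside -0.01 over all genes. The 3 that rose were the chemokine receptors Cxcr2 at 6.74 (adjusted p = 2.44e-05) and Cxcr4 at 3.78 (adjusted p = 0.00129), which mark leukocytes, and Cd44 at 2.57 (adjusted p = 2.25e-04), the hyaluronan receptor. In mid fistulas Cd44 (2.17) and Cxcr2 (5.27) were called, and in late fistulas Cxcr2 (4.43), beside 6.05% and 5.33% of all genes. The neutrophil and macrophage marker sums given with Mif were high in the same early libraries, and their part was not tested.

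Another list holds genes that build and edit heparan sulfate, the chain by which syndecans hold the ligands. Of 18 tested, edgeR called 3 in early fistulas, beside 12.6% of all genes. There 1 rose, Xylt1 at 3.55, and 2 fell, the sulfotransferase Hs3st1 at -3.50 (adjusted p = 1.41e-07) and the epimerase Glce at -1.36, with a median of 0.63. Hs3st1 stayed lower in mid (-2.23) and late fistulas (-2.22). The sulfatase Sulf1, which trims the chains, rose in mid (1.22) and late fistulas (1.26), while its early change of 0.72 was under the fold limit. In mid fistulas Xylt1 (3.32) and Sulf2 (1.04) rose too, for 3 up and 1 down, beside 6.05% of all genes called. In late fistulas 1 rose and 1 fell, beside 5.33%.

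Of 8 syndecan adapters and sheddases, 1 was called at each time, beside 12.6%, 6.05% and 5.33% of all genes, so the early share is close to that of all genes. It was the membrane protease Mmp14, higher at 1.43 (adjusted p = 0.00912), 2.06 and 1.99, and the early median of the list was 0.42. Of 8 other heparan sulfate proteoglycans, 3 were called early, where Gpc1 rose (4.87) and Gpc3 (-3.04) and Tgfbr3 (-1.47) fell, with a median of -0.32. Gpc1 was also called in mid (5.91) and late fistulas (5.85), and Hspg2, perlecan of basement membranes, in both (1.40 and 1.67). Col18a1 was called in late fistulas (2.89). Of 10 tested partners of Lrp1, 3 rose and 2 fell early, beside the same 12.6% of all genes. Those reported here are Plaur (2.23) and Apoe (1.36), which rose, and Gulp1 (-2.54) and the chaperone Lrpap1 (adjusted p = 1.01e-04, just past the fold limit), which fell. In mid and late fistulas edgeR called 0 of the 10 tested partners against veins, with 5 and 4 at an unadjusted p under 0.05. DESeq2 called 0 and 1, and the likelihood ratio test 0 at both times.

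Of 12 nucleolar proteins, edgeR called 0 in early, mid or late fistulas against veins, beside 12.6%, 6.05% and 5.33% of all genes. At an unadjusted p under 0.05 there were 3, 1 and 2. DESeq2 called 1, 0 and 2, and the likelihood ratio test 1, 0 and 0. In early fistulas their median was 0.56, and the partner of nucleolin in ribosome assembly, Npm1, had a change of 0.88 (adjusted p = 0.00323), under the fold limit. Npm1 was lower in late than in early fistulas, at -1.09 (adjusted p = 0.00550).

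In single cells the members could be assigned to cell classes. Of 26438 barcodes called as cells in the deposited files, 16893 were kept, 6319 of 11563 from the contralateral vein, 4753 of 7074 from the early and 5821 of 7801 from the late fistula, with median unique molecular identifiers (UMIs) per cell of 2751, 8951 and 15425. Clusters were named from fixed marker genes and are called "like" the cell type. The 9 members, the pathway genes and the markers were kept out of the clustering. The pairs of libraries shared 5, 6 and 6 kept barcodes. Scrublet, a doublet finder, marked 1, 6 and 131 cells, so it has not worked in the contralateral and early libraries. Levels are CPM of the UMIs of a class, with 95% Poisson intervals in brackets that cover counting error only.

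The make-up of the libraries differed. Fibroblast-like cells numbered 1851 in the contralateral, 419 in the early and 1951 in the late library, and monocyte/macrophage-like cells 795, 2618 and 2129. Neutrophil-like cells numbered 63, 790 and 288, smooth muscle-like cells 35, 226 and 503, and endothelial-like cells, which include lymphatic ones, 818, 66 and 73. Fibroblast-like cells fell into cluster 2 in the contralateral library (1750 cells), cluster 12 in the early (322) and cluster 1 in the late (1596), so class and condition largely coincide there, as they do for the monocyte/macrophage-like class, given with Sdc3. Cluster 12, led by Aspn, Thbs4 and Postn, had 0 cells in the contralateral library. Part of the monocyte/macrophage-like class, cluster 4, had shallow cells with a median of 1094.5 UMIs, and Pth, a parathyroid hormone gene, among its leading genes.

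**Figure D4:**
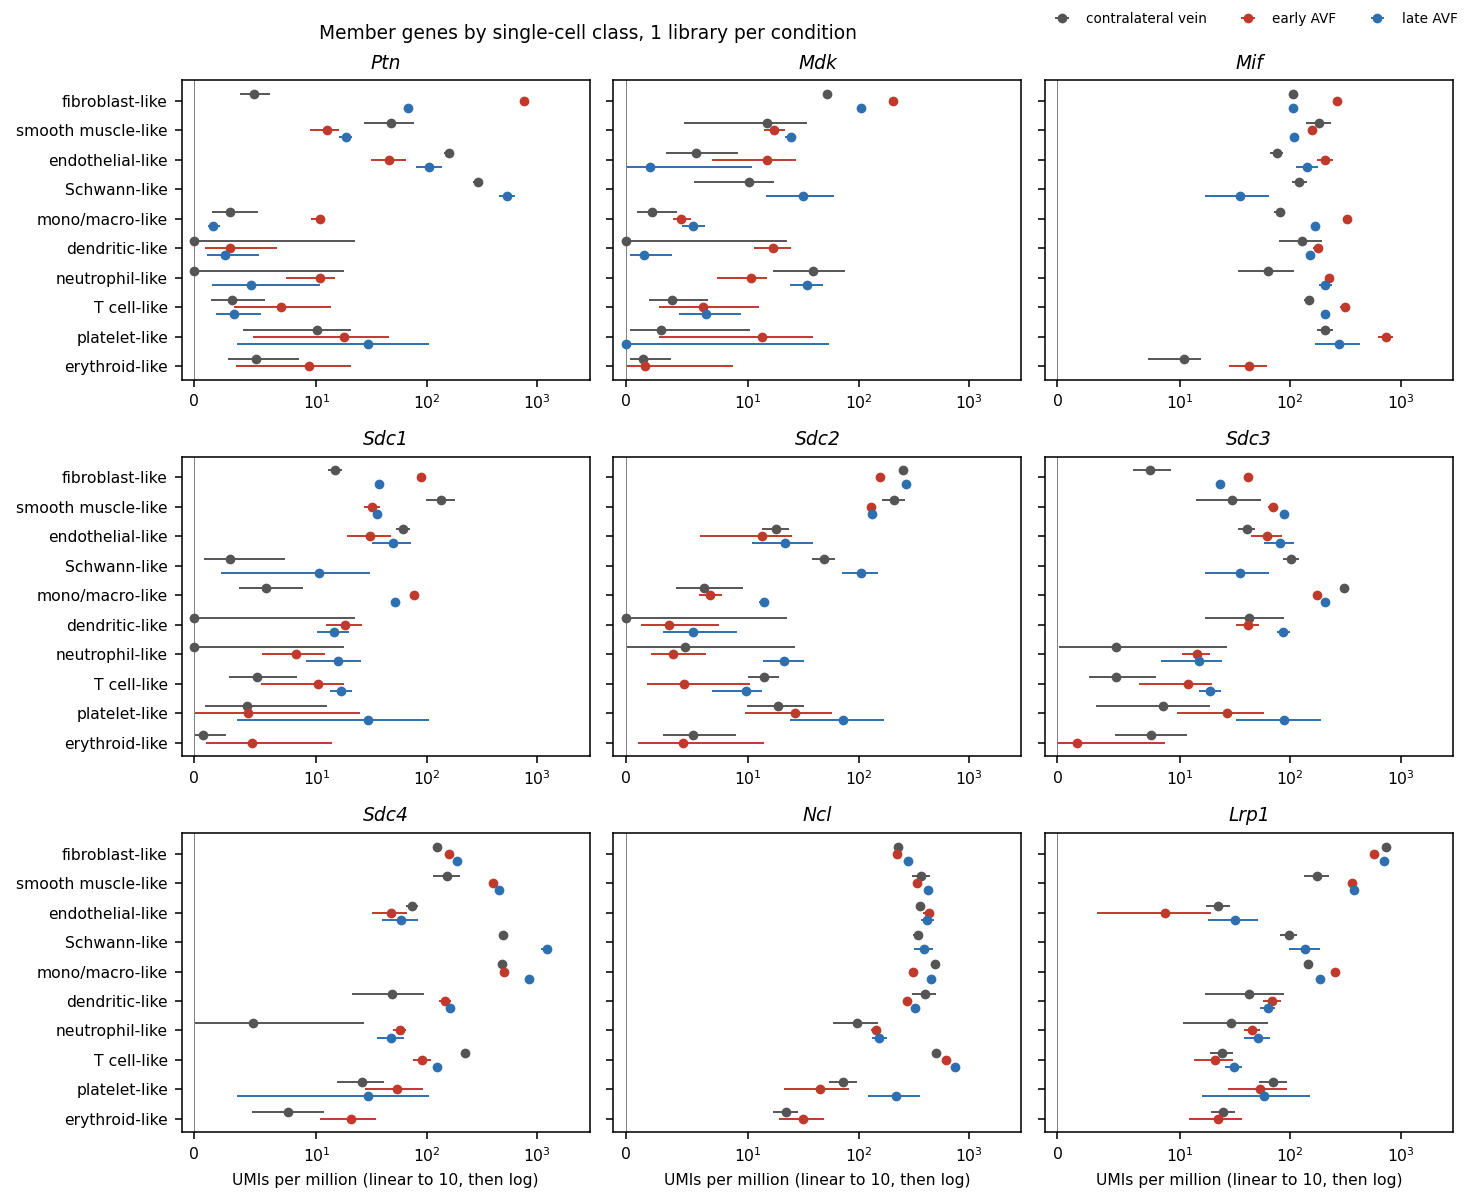
Level of each member gene (horizontal axis, CPM, linear up to 10 and then log) in 10 cell classes of the 3 single-cell libraries, with 95% Poisson intervals and only classes of at least 20 cells drawn. Ptn in fibroblast-like cells is at 4.87, 758 and 67.3 in the contralateral, early and late library, and Lrp1 is highest in fibroblast-like cells of each library.

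Most Ptn UMIs were in Schwann-like and endothelial-like cells of the contralateral library and in fibroblast-like cells of both fistula libraries. The contralateral levels were highest in Schwann-like cells at 289 [262 to 319] and endothelial-like cells at 159 [145 to 174], which held 40.0% and 47.5% of its UMIs, with 4.87 [3.74 to 6.23] in fibroblast-like cells. In the early library fibroblast-like cells held 94.7% of its UMIs, at 758 [743 to 774]. In the late library they held 86.8%, at 67.3 [65.0 to 69.6], below Schwann-like cells at 535 [454 to 628] and endothelial-like cells at 106.

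Within the fibroblast-like class of the early library, cluster 12 was at 936 [917 to 957] and cluster 1 at 163. In the late library the same clusters were at 84.4 and 64.5. A Ptn UMI was found in 64.0% of early fibroblast-like cells (median depth 31523 UMIs) and in 8.52% of early monocyte/macrophage-like cells (11124.5 UMIs), a class taken as one that should lack it. With each cell thinned to 1000 UMIs, which leaves out 1994 of 16893 cells, these shares were 31.3% and 1.53%. Schwann-like cells numbered 395, 10 and 24, so their early value is not read.

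Mdk UMIs were in fibroblast-like cells in all 3 libraries, for 90.7%, 88.0% and 90.7% of its UMIs, at 52.0, 206 and 106 CPM. No background share was measured for Mif, so a low level does not show expression in a class. Its UMIs were counted in every class with at least 20 cells, at their lowest level in erythroid-like cells (10.9 and 42.4 in the contralateral and early library). The early one was 322 in a setting without the highest Scrublet scores, chosen after seeing the data, in which a shallow cluster led by Pth took the erythroid-like name. Its level was highest in platelet-like cells, at 208, 736 and 277, which are shallow (median 788, 689 and 636 UMIs) and held 1.05% of the early Mif UMIs. In the contralateral and late library its interval there overlapped that of the next class. In monocyte/macrophage-like cells it was 80.0, 327 and 168, and these held 63.8% of its early UMIs. T cell-like cells had 147, 311 and 208, and fibroblast-like cells 107, 267 and 107. Smooth muscle-like cells were at 182 [140 to 233], 159 [148 to 170] and 108 [102 to 114], with no rise shown in the early library. Over whole libraries Mif was at 100.5, 284.5 and 130.02.

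Sdc2 was a gene of fibroblast-like and smooth muscle-like cells. Fibroblast-like cells had 252 [243 to 261], 156 [149 to 163] and 270 [266 to 275] in the contralateral, early and late library, and smooth muscle-like cells 209, 130.0 and 133. Over whole libraries Sdc2 was at 121, 48.6 and 159, with 1 library per condition and different fibroblast-like clusters in each. Cluster 1, found in all 3, had Sdc2 at 352, 157 and 276. Fibroblast-like cells held 91.8%, 66.9% and 86.0% of its UMIs.

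Sdc1 was highest in smooth muscle-like (135) and endothelial-like cells (61.5) of the contralateral library and in fibroblast-like (89.4) and monocyte/macrophage-like cells (76.1) of the early one. Sdc3 was highest in monocyte/macrophage-like cells, at 308, 177 and 205, which held 72.9%, 84.3% and 66.5% of its UMIs. The class holds different clusters in the libraries. Cluster 11 has 668 of 795 such cells of the contralateral library and 24 and 14 of those of the early and late one, and within it Sdc3 was at 338, 411 and 337. Over whole libraries Sdc3 was at 54.1, 116 and 80.8. Sdc4 was in monocyte/macrophage-like cells at 478, 505 and 837, with 496 in Schwann-like cells of the contralateral and 1219 in those of the late library. Ncl was broad, at 503, 620 and 757 in T cell-like and 227, 225 and 279 in fibroblast-like cells.

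Lrp1 was highest in fibroblast-like cells of every library, at 743 [728 to 758], 574 [561 to 588] and 714 [707 to 721], with 90.4%, 40.1% and 77.8% of its UMIs. Monocyte/macrophage-like cells had 144, 254 and 187 and held 47.2% of its early UMIs, and smooth muscle-like cells had 176, 362 and 378. Over whole libraries Lrp1 was at 364, 299 and 463. The bulk rise of Lrp1 in late fistulas stands beside a level in fibroblast-like cells that was not higher in the late than in the contralateral library, with the single-cell fistula harvested later.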

How the data were processed

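Read counts per gene of the 25 bulk libraries and UMI counts of the 3 single-cell libraries were used as the authors deposited them. Their notes name STAR, Cell Ranger (version 6.0.2 per the file headers) and the build mm10 / GRCm38, and the tool and strand used for bulk counting are not stated. Bulk counts were tested with edgeR 4.0.16 in R 4.3.3 (TMM scaling, 1 mean per group, quasi-likelihood F-test, Benjamini-Hochberg adjustment over 12673 genes with a mean normalized count of at least 100), and again with DESeq2 1.42.0. Log2 CPM used a prior count of 2. Interaction with sex was fitted as group by sex. The 9 members, the 7 pathway lists and the 23 marker lists were chosen with earlier results of these data known. Named beside the members were the 4 pathway genes of each list with the smallest early p, other called genes, and 3 like genes per member, and 1 gene that this rule names is not reported here. Barcodes under 200 or over 6000 genes or above 10% mitochondrial UMIs were dropped, and the rest scaled to 10000 UMIs and clustered in scanpy 1.11.5 (2000 variable genes, 12 components, 20 neighbors, Leiden resolution 0.5, 17 clusters, 16 named into 10 classes). Classes under 20 cells were not ordered. Other settings tried were scaling, filters, tests, sex as a term, libraries left out, doublets, resolution, the mitochondrial limit and depth.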

Additional observations from a re-analysis of the deposited data

Results flagged for a closer look

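Over the 36 groups of values, 9 members in 4 bulk groups, 5 held a library whose gap to its nearest neighbor was large against the range of its group. Chance gives such a gap in about 1 of 20 groups where values are normally distributed, which was not checked for CPM. The same libraries enter the groups of all 9 members, so the groups are not independent and 5 of 36 is not read as an excess. Vein 28 had 208 CPM of Ptn, with the next vein at 43.1 CPM, and 155 CPM of Mdk, with the next at 41.2 CPM. Early fistula 6 had 946 CPM of Sdc4, with the next early fistula at 398 CPM. Mid fistula 15 had 188 CPM of Ncl, with the next at 150.2 CPM. Late fistula 17 had 989 CPM of Lrp1, with the next at 625 CPM, and without it the late change of Lrp1 against veins was 1.07, past the fold limit, but no longer called (adjusted p = 0.0331). Vein 28 and early fistula 6 are also among the libraries with few genes detected.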

How the results depend on the processing

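Of 1836 other values of member fold changes, 1753 kept direction and side of the limits, 20 became called, 21 lost a call and 42 changed sign. Among 1233 other single-cell values, 249 moved outside the Poisson interval of the value as reported. That interval leaves out the counting error of the other value, so these moves were not shown to exceed counting error. Where the text gives no cause for a move, the cause was not tested. As reported, edgeR called 1599, 767 and 676 genes in early, mid and late fistulas against veins, 1 in mid against early, 381 in late against early and 0 in late against mid, with 2, 0, 1, 0, 2 and 0 members.

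In that order DESeq2 called 2440, 1418, 1294, 474, 753 and 1 genes, with 1 member (Lrp1) in mid fistulas and 2 in mid against early. The likelihood ratio test called 1158 and 1044 genes in mid and late fistulas, 356 in mid and 625 in late against early, with the same members as DESeq2 in mid fistulas and in mid against early. The filterByExpr rule, which keeps more genes, called 3803, 2823 and 2696 genes against veins and 1 member, Lrp1, in mid fistulas. Its early calls were 2793 up and 1010 down, beside 782 and 817 as reported, and the median change of all genes was 0.19. Without a filter there were 3938, 2728 and 2567 genes against veins (early 3031 up and 907 down, median 0.51) and 208 in late against early.

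With only the libraries of the 2 groups there were 665, 403 and 279 genes against veins and 596 in late against early, and 0 members in late fistulas, as Lrp1 had 1.23 with an adjusted p of 0.0736 (0.00102 to 0.0736 over the 9 other settings). Mid against early had 0 genes with RLE scaling, with filterByExpr, with the 2 groups only, with sex as a term and in both settings chosen after seeing the data. Those were fits without early fistulas 3, 5 and 6, and without these and vein 28. The first called 1062 genes and 1 member in early fistulas, 0 members in late fistulas, and 33 genes and 1 member in late against early. The second called 1 member, Ptn, in mid and 2 in late fistulas, and 64 genes in late against early.

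With 1 library left out, genes called ran from 1383 to 1816, 534 to 949, 424 to 886, 0 to 306, 32 to 557 and 0 to 0 in the 6 comparisons, and members from 2 to 2, 0 to 1, 0 to 1, 0 to 2, 1 to 2 and 0 to 0. Over the 9 other settings, adjusted p-values were 1.08e-06 to 0.0282 for the early change of Mif (0.79 to 2.29), 3.66e-06 to 0.00643 for that of Sdc2 and 3.61e-04 to 0.60008 for that of Ptn.

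Changes of sign were all in values that were not called. Sdc1 in late against mid fistulas was -0.0060 with DESeq2 and with RLE scaling, -0.0064 without 3 early fistulas and -0.0017 with filterByExpr. Mdk in late fistulas was 0.036 with the 2 groups only, 0.0064 with sex as a term and 0.75 without the 4 libraries, where Mdk in early fistulas was 0.080, Sdc1 in mid 0.060 and in late fistulas 0.078. Ncl in early fistulas was 0.041 with sex as a term. Sdc4 in early fistulas was -0.058 without 3 and -0.095 without 4 libraries. With 1 library left out, Ncl early ran from -0.13 to 0.13, Mdk late from -0.24 to 0.74, Sdc1 mid from -0.37 to 0.067 and late from -0.36 to 0.074, Sdc2 late from -0.075 to 0.23 and Ptn in late against early from -0.32 to 0.30. In late against mid, Sdc1 ran from -0.077 to 0.093, Ncl from -0.071 to 0.030 and Lrp1 from -0.033 to 0.20.

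In single cells, a limit of 5% mitochondrial UMIs gave Sdc2 265 CPM in contralateral fibroblast-like cells, Ptn 786 in early ones and Mif 315 in early monocyte/macrophage-like cells, and left no separate dendritic-like class. Cells thinned to 1000 UMIs, with shallower cells left out, gave 152 of the moves. There Sdc2 was 218, 129 and 261 in fibroblast-like cells of the 3 libraries, Lrp1 774, 592 and 738, Ptn 58.97 in the late ones, and Mif 66.4, 300.3 and 156 in monocyte/macrophage-like cells. Without the highest 5% of Scrublet scores, chosen after seeing the data, Ptn was 738 in early fibroblast-like cells. There the shallow cluster led by Pth, 960 cells, was named erythroid-like and not monocyte/macrophage-like, so both classes hold other cells, and Sdc3 in the latter was 182 and 213 in the fistula libraries. No paired analysis was possible because the bulk groups share no library numbers. Low counts limit Ptn, Mdk and Sdc3 most, down to 0.175 CPM for Sdc3 in veins.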

Other observations

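The marker lists of other tissues differed between libraries of the same group. Their counts of called genes stand beside 12.6%, 6.05% and 5.33% of all genes in early, mid and late fistulas against veins. Of 6 skeletal muscle genes (most abundant Acta1), 5 rose at each of the 3 times against veins, where the sum was 0.9 to 40.2 CPM. The sum ran from 5.3 CPM in early fistula 7 to 4226 in early fistula 10, from 600.4 to 6161 CPM in mid fistulas and from 6.4 CPM in late fistula 17 to 8154 in late fistula 23. Of 3 tested cartilage or tendon genes (Tnmd) 3 rose early, 2 in mid and 3 in late fistulas, with median sums of 0.1 CPM in veins and 13.6, 35.2 and 82.7 CPM at the 3 times. Thyroid or parathyroid genes (Pth) reached 14101 CPM in early fistula 1, 5347 CPM in late fistula 19 and 1626 CPM in mid fistula 12, against at most 10.8 CPM in veins, and edgeR called 0 of 2 tested genes at any time, though 2 of 2 had an unadjusted p under 0.05 at each time against veins. DESeq2 called 0, and the likelihood ratio test called 1 in early fistulas. Sympathetic neuron genes (Stmn2) reached 2159 CPM in early fistula 7 and 572 and 267 CPM in late fistulas 16 and 24, with at most 71.5 CPM in veins. The medians were 37.0 CPM in veins and 24.9 CPM in early fistulas, though 3 of 4 tested genes were called as higher early.

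Of 6 cell division genes (Top2a), 3 rose in early fistulas, and the summed level of every early fistula, 272 CPM or more, lay above every vein, 196 CPM or less. Mid and late medians were 247 and 160 CPM. Erythroid genes (Hba-a1) were lower in late fistulas, for 5 of 5 genes against veins, and 1 of 5 fell early. Mast cell (Cma1) and lymphatic endothelial genes (Mmrn1) each had 1 gene lower in early fistulas, of 4 and 5 tested. Schwann genes (Mbp) had 1 of 7 lower, B cell genes 1 of 4 lower, and dendritic genes (Naaa) 1 higher and 1 lower of 6. These early counts stand beside 12.6% of all genes called, and 1 of 7 is close to that share. For T cell (4 tested), NK cell (1), plasma cell (3), adipocyte (5) and epithelial or mesothelial genes (3), edgeR called 0 in early fistulas against veins. At an unadjusted p under 0.05 there were 2, 0, 2, 2 and 0, and DESeq2 called 2 T cell genes and the likelihood ratio test 1, with 0 in the other lists. Of satellite cell genes, 0 of 3 satellite cell genes passed the filter. In late fistulas 1 T cell gene rose, and the late counts stand beside 5.33% of all genes called. No gene of the 23 lists was at 0 in all libraries.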
